A study of Rattus norvegicus with 16 samples.

Results

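Rgs5, Acta2, Myh11, Tagln and Mylk, 5 genes that mark pericytes and smooth muscle cells, were described across every cell of 16 single-cell RNA-sequencing libraries from rat lumbar intervertebral discs (IVDs). The 5 genes were chosen by name from 14930 genes listed in at least 1 of the groups, and all 5 were among the 13596 genes listed in every group. A second unit was the cell in which both Rgs5 and Acta2 were above 0, and 712 of 149272 cells met that rule.

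Pericytes and smooth muscle cells are the mural cells that wrap the outside of capillaries and larger vessels. They hold the endothelial tube, set its diameter and are recruited by endothelial platelet-derived growth factor and Notch signals. The healthy disc is largely avascular, and its vessels lie in the outer annulus, the endplates and the tissue around them. Contraction of these cells runs from calcium and calmodulin to myosin light chain kinase, then to the myosin filament that pulls on actin, while regulators of G-protein signaling shorten the receptor signals upstream.

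The libraries came from 8 male Sprague-Dawley rats that were 8 weeks old at surgery. Each rat gave 1 library of its uninjured L2-3 and L3-4 discs, pooled (CON), and 1 of its L4-5 and L5-6 discs, pooled after a single stab with a 27G needle (LDP, lumbar disc puncture). Rats 1 to 4 were examined at 2 weeks and rats 5 to 8 at 8 weeks, so that each group (CON or LDP at 2 or 8 weeks) held 4 libraries, and every rat had undergone the surgery. The control discs therefore came from operated animals and from other spinal levels than the punctured discs, and level and puncture cannot be told apart. The submitters sorted cells into an IVD class (disc cells), endothelial, myeloid and lymphoid classes and, at 2 weeks, divided the IVD class into 3 subclusters. The remaining cells had no class name. The 4 groups were clustered separately, and CON at 8 weeks had no endothelial class.

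The libraries held 2221 to 15918 cells with a median of 3861 to 8092 unique molecular identifiers (UMIs, counted RNA molecules) per cell. The smallest, with 2221 cells, was the LDP library of rat 6. The CON library of rat 3 stood apart: Rgs5 was above 0 in 6.43% of its cells, against 2.58% to 2.98% in the other 3 CON libraries at 2 weeks, and 39 of the 80 cells that qualified on 1 UMI of each gene came from it. Of 120 pairs of libraries, each shared between 0 and 75 cell barcodes, at most 0.720% of the smaller library.

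Levels are counts scaled to a total of 1e+06 within each cell (CPM), averaged over the cells of a library with equal weight per cell. Log2 changes are differences of log2(mean CPM + 1), LDP minus CON. Rgs5, a regulator of G-protein signaling that is abundant in pericytes, was at 52.9, 39.1, 52.4 and 41.6 CPM in the CON libraries of rats 1 to 4 and at 12.2, 27.3, 8.10 and 10.3 CPM in their LDP libraries. Every punctured library lay below every control library. The level was 46.5 ± 7.18 CPM in CON and 14.5 ± 8.71 CPM in LDP (SD, n = 4), a log2 change of -1.75 (SE 0.46). The test across all 12199 genes did not call it (limma with the rat as block, adjusted p = 0.445).

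Acta2 encodes smooth muscle alpha-actin, the thin filament of the contractile cell. It was at 23.0, 18.7, 17.2 and 14.3 CPM in CON and at 17.3, 17.7, 10.6 and 9.08 CPM in LDP at 2 weeks. The groups overlapped, and the log2 change was -0.43 (SE 0.34, limma adjusted p = 0.707). Myh11, the smooth muscle myosin heavy chain and the narrowest marker of smooth muscle among the 5, was at 44.1, 55.3, 38.1 and 28.7 CPM in CON and at 19.6, 35.1, 13.7 and 10.6 CPM in LDP. Rat 2 had the highest value of both groups, and the log2 change was -1.14 (SE 0.31, limma adjusted p = 0.445).

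Tagln, the actin-binding protein transgelin, was at 81.7, 85.2, 103.9 and 60.0 CPM in CON and at 30.9, 50.7, 29.8 and 47.2 CPM in LDP at 2 weeks. As for Rgs5, the ranges did not overlap, and the log2 change was -1.05 (SE 0.30, limma adjusted p = 0.457). Mylk, myosin light chain kinase, was at 39.2, 37.6, 27.7 and 29.5 CPM in CON and at 26.6, 34.5, 16.7 and 12.9 CPM in LDP. Its log2 change was -0.62 (SE 0.20, limma adjusted p = 0.472). All 5 genes were lower in LDP in 4 of 4 rats, a pattern that 12.1% of all genes tested showed, and 2 of the 5 had libraries that did not overlap, which held for 4.37% of all genes tested in that direction. Markers of other cells were read over the same cells: 10 of 10 endothelial markers (median log2 change -0.72, smallest limma adjusted p = 0.361) and 8 of 8 fibroblast and outer annulus markers (median -0.80, smallest 0.363) were below 0, and 5 of 5 lymphoid markers above 0 (median 2.18, smallest 0.645). Their part in the result was not tested. Limma on the mean CPM and edgeR called 0 of the 12199 genes at 2 weeks (278 higher and 841 lower had an unadjusted limma p under 0.05), limma on the CPM of summed counts called 1, and DESeq2 called 142 (1.16%).

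At 8 weeks the CON libraries lay below those of 2 weeks for Rgs5, Myh11, Tagln and Mylk and overlapped them for Acta2, with different rats at each time and no test between the times. The CON and LDP libraries at 8 weeks overlapped for each of the 5 genes. Over all genes tested, 3.88% had LDP libraries wholly below CON and 0.885% wholly above. In the same fit 9 of 10 endothelial markers (median log2 change -0.68, smallest limma adjusted p = 0.275) and 8 of 8 fibroblast and outer annulus markers (median -0.96, smallest 0.229) were below 0, and 5 of 5 Schwann markers above 0 (median 1.05, smallest 0.547), and their part in the result was not tested. The Schwann list includes S100b, which the authors count among markers of the chondrocyte lineage, so it is not specific to Schwann cells. Rgs5 was at 12.7, 5.76, 13.2 and 9.40 CPM in the CON libraries of rats 5 to 8 and at 0.844, 6.79, 9.01 and 4.59 CPM in LDP, a log2 change of -1.02 (SE 0.46, limma adjusted p = 0.549). Acta2 was at 6.26, 6.67, 16 and 7.02 CPM in CON and at 25.0, 16.6, 8.97 and 12.7 CPM in LDP. It was higher after puncture in rats 5, 6 and 8 and lower in rat 7, with a log2 change of 0.76 (SE 0.34, limma adjusted p = 0.547). The log2 changes of Myh11, Tagln and Mylk were -0.45, -0.02 and -0.26, those of Tagln and Mylk turning to 0.25 and 0.04 by DESeq2. None of the 5 passed the limma test, against 0.0082% of all genes (1 of 12199). These values rested on single rats: without rat 5 the log2 changes were -0.40 for Rgs5, 0.40 for Acta2 and -0.05 for Myh11, without rat 6 they were -1.43 for Rgs5 and -0.82 for Myh11, and without rat 7 that of Acta2 was 1.27. The puncture effect at 8 weeks minus that at 2 weeks was 1.19 for Acta2 and 1.04 for Tagln on the log2 scale, neither past the test (limma adjusted p = 1.00 for each).

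**Figure D1:**
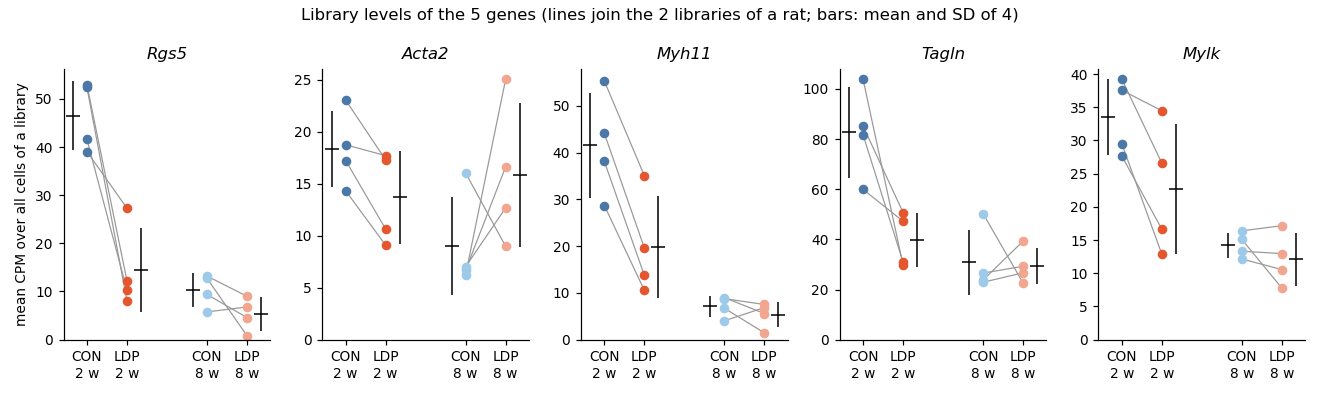
Mean CPM of each of the 5 genes over all cells of a library, by group, with a point for each library, lines joining the 2 libraries of a rat, and bars for the mean and SD of 4 libraries. At 2 weeks every line falls from CON to LDP, while at 8 weeks Acta2 is higher in LDP in 3 of 4 rats.

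The starts of Acta2 and Rgs5 are shown because both genes define the cell counted here, one a contractile gene and the other a signaling gene. The bases are the 250 before the transcription start in RefSeq's GRCr8 build, which the files do not use, so no value was read by coordinate. Serum response factor binds the CArG box (CC, then 6 bases that are each A or T, then GG), an element known from contractile genes. The windows of 3 of the 5 genes were in the table, and capitals mark a CArG-like element, in which at most 1 of the 6 inner bases is not A or T and which includes the CArG box. The Acta2 window is chr1:241172504-241172753 on the minus strand, and the Rgs5 window chr13:84380827-84381076 on the plus strand.
Acta2: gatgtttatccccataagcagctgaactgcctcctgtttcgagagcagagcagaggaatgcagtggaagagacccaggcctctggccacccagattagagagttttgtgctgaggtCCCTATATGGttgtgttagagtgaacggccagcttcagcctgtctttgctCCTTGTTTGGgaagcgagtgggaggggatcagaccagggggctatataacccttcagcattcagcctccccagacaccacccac
Rgs5: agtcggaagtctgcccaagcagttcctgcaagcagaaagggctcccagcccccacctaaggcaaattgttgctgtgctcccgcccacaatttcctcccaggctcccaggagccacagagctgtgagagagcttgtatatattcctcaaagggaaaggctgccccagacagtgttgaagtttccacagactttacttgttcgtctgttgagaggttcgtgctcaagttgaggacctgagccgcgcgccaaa

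The Acta2 window held CCCTATATGG at 134 to 125 bases and CCTTGTTTGG at 84 to 75 bases before the start, neither a full CArG box. No CArG-like element was found in the Rgs5 or Mylk windows. Among 33469 RefSeq promoter windows of the same length, 8.08% held a CArG-like element and 1.50% a full CArG box on either strand. CATTCC, the MCAT motif of TEAD factors, was found in the Acta2 window (196 to 191 bases before the start) and in the Mylk window (36 to 31 bases), and in 12.1% of all windows on either strand. A match is a run of letters, not a measured site.

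Across the classes the 5 genes were highest in the cells without a class name of uninjured discs at 2 weeks, 1593 cells in all. These levels describe clusters that were made on the same cells, and no test was run between classes. Rgs5 was at 799, 1145, 647 and 1472 CPM in these cells of rats 1 to 4, against 2.14 to 28.6 CPM in the endothelial class, 2.08 to 33.0 CPM in the IVD class and 0 to 7.30 CPM in the myeloid class. The endothelial and IVD ranges overlapped. Acta2 was at 284, 490, 116 and 327 CPM, Myh11 at 636, 1940, 472 and 968 CPM and Tagln at 1144, 2454, 1484 and 1887 CPM in the cells without a class name. Mylk was at 192 to 617 CPM in those cells and at 64.6 to 102 CPM in the endothelial class, above its 14 to 24.1 CPM in the IVD class, with no overlap between the 3.

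**Figure D2:**
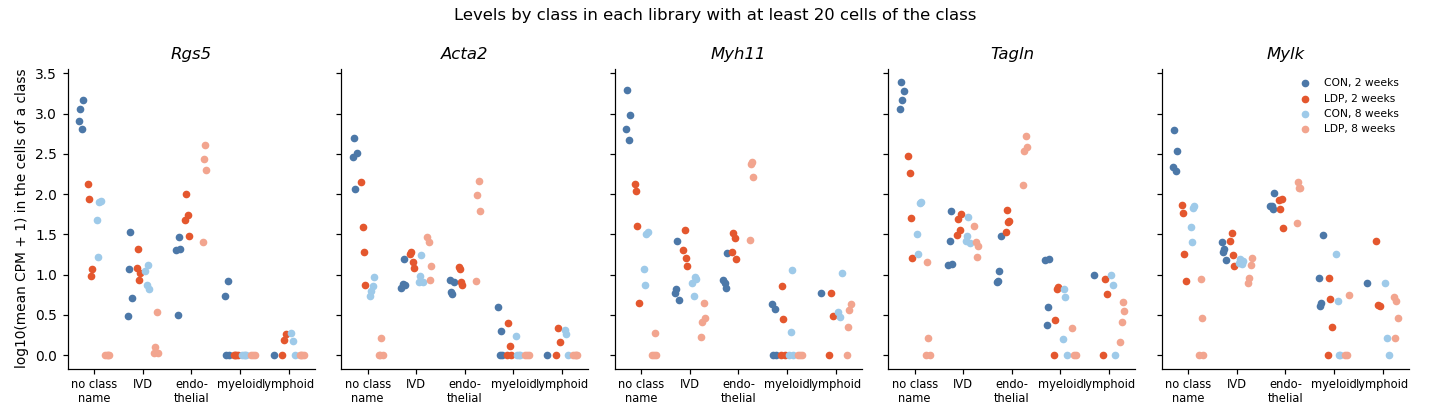
Level of each gene, log10(mean CPM + 1), in the cells of a class, with a point for each library that had at least 20 cells of the class, coloured by group. The cells without a class name hold the highest points in CON at 2 weeks, and the endothelial class does so in LDP at 8 weeks.

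Within the cells without a class name, all 5 genes were lower in LDP than in CON at 2 weeks. The LDP libraries of rats 1 to 4 held 23, 249, 304 and 223 of these cells, so the values of rat 1 rest on few. Rgs5 was at 131, 86.9, 8.56 and 10.8 CPM in them, below every control value, as held for 4 of the 5 genes and for 11% of all genes tested. Its log2 change was -4.84 (SE 0.65, limma adjusted p = 0.00953). The changes of the other genes ran from -3.20 for Acta2 (limma adjusted p = 0.0385) to -4.44 for Myh11 (limma adjusted p = 0.0133). All 5 were called lower, against 0.892% of the 12437 genes tested. Leaving out rat 2, 3 or 4 left 0 of the 5 called and leaving out rat 5 left 2, and with 0.1 in place of 1 added before the log only Rgs5 was called. Markers of other cells differed there too, without passing the test. Col2a1, type II collagen of the disc, was at 1870 to 9685 CPM in LDP against 1088 to 2076 CPM in CON, all 7 disc markers tested were above 0 (median log2 change 1.90, smallest limma adjusted p = 0.160) and 4 of 5 Schwann markers below 0 (median -3.08, smallest 0.106). Which cells were left without a class name and what those cells held cannot be told apart here either.

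At 8 weeks the same comparison again called 5 of 5 genes lower, against 4.36% of all genes tested. Rgs5 was at 47.1, 15.6, 78 and 79.97 CPM in these cells of CON and was listed at 0 in all 4 LDP libraries. It was above 0 in 2.39% to 8.16% of these cells in each CON library and in 0 of 1182 cells over the 4 LDP libraries, of which 628 came from rat 6. A count of 0 allows a pooled share of cells with a UMI of up to 0.254%, a limit that covers counting error and not the spread between rats. Acta2 and Myh11 were above 0 in these cells of the LDP library of rat 7 only. Leaving out rat 5 or 7 left 3 of the 5 genes called and leaving out rat 8 left 2. All 10 endothelial markers and 3 of 8 fibroblast and outer annulus markers were called lower in the same comparison, and 2 of 5 Schwann markers higher (median log2 change over the 5 of 3.67). Their part in the result was not tested. Cdh5, the endothelial cadherin, was at 401 to 832 CPM in the CON cells and at 0 to 0.467 CPM in the LDP cells. CON at 8 weeks had no endothelial class, and which cells were left without a class name and what those cells held cannot be told apart.

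In the endothelial class Rgs5 and Tagln stood higher in punctured discs at 2 weeks, and whether they passed depended on the fit. Few of its cells held Rgs5, 0.893% to 2.38% in CON and 4.29% to 7.42% in LDP. Cells with both Rgs5 and Acta2 were 5 of 3103 in CON and 46 of 3292 in LDP. Which cells were placed in the class and what the cells held cannot be told apart. Rgs5 was at 19.2, 2.14, 28.6 and 19.8 CPM in CON and at 46.4, 100.2, 54.7 and 29.2 CPM in LDP at 2 weeks, with no overlap and a log2 change of 1.92 (SE 0.49, limma adjusted p = 0.746), or 0.89 without rat 2. Tagln was at 7.19, 7.32, 10.1 and 29.4 CPM in CON and at 32.7, 62.8, 44.0 and 45.7 CPM in LDP, a log2 change of 1.90 (SE 0.31, limma adjusted p = 0.0721). Acta2, Myh11 and Mylk overlapped, with log2 changes of 0.46, 1.26 and -0.23 (Mylk turned to 0.19 by edgeR). Libraries did not overlap, with LDP higher, for 2 of the 5 genes and for 0.526% of all genes tested. Limma called 0 of 11224 genes here (111 higher and 395 lower had an unadjusted p under 0.05), whereas on counts summed over the cells limma called 34 (0.303%), edgeR 46 (0.41%) and DESeq2 48 (0.428%). All 3 called Rgs5, Myh11 and Tagln higher, for Rgs5 with an edgeR log2 change of 3.02 (adjusted p = 0.00106). At 8 weeks the LDP endothelial class reached 24.4, 268, 403 and 198 CPM of Rgs5 and 127, 342, 519 and 387 CPM of Tagln, with no class to compare in CON.

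All 5 genes rose in subcluster 3 of the IVD class at 2 weeks. In CON this subcluster is the outer annulus fibrosus (OAF), the collagen-rich rim of the disc. In LDP the number 3 was matched to it here by Lum, which encodes lumican and was at 730 to 1620 CPM in it and at 6.23 to 34.9 CPM in the other 2 LDP subclusters. Rgs5 was at 6.83, 0.253, 6.09 and 15.3 CPM in CON and at 168, 102, 78.6 and 60.5 CPM in LDP. Acta2 was at 2.81, 0.682, 1.54 and 2.26 CPM in CON and at 77.4, 60.2, 55.2 and 49.2 CPM in LDP. The libraries did not overlap for any of the 5 genes, which held for 3.36% of all genes tested in that direction.

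All 5 were called higher in LDP, against 1.33% of the 11667 genes tested. The log2 changes were 4.51 for Myh11 (SE 0.21, limma adjusted p = 2.66e-05), 4.49 for Acta2 (adjusted p = 2.92e-05), 4.30 for Tagln (adjusted p = 6.23e-05), 4.05 for Rgs5 (adjusted p = 0.00483) and 1.21 for Mylk (adjusted p = 0.0209). Mylk lost the call without rat 1, 2 or 3 and without the limit on low levels, while the other 4 kept it. Few cells of the subcluster held the genes. Rgs5 was above 0 in 4.44% to 6.38% of its LDP cells and 0.220% to 1.49% of its CON cells. The myeloid and lymphoid cells of a library, which should lack Rgs5, held it in 0% to 2.41%. They were shallower, at median depths of 1391 to 5328 UMIs per library at 2 weeks against 3258 to 7178 UMIs in the subcluster. Markers on the Schwann list, which includes S100b, moved with the genes. Limma called 4 of 6 higher, and their part in the result was not tested. The 4 groups were clustered separately, so which cells were placed in the subcluster and what the cells held cannot be told apart.

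Over the whole IVD class limma called none of the 5 genes at 2 or 8 weeks, against 0.181% and 0.259% of all genes tested. The class held 54 of 423 cells with both Rgs5 and Acta2 in CON and 138 of 194 in LDP at 2 weeks. At 8 weeks it held 36 of 53 in CON, which had no endothelial class, and 4 of 42 in LDP. Which cells were placed in the class and what the cells held cannot be told apart. At 2 weeks DESeq2 on summed counts called Myh11 higher (log2 change 1.57, adjusted p = 0.00238), against 2.46% of all genes, and limma did so without rat 3 (1.88, adjusted p = 0.0464). Rgs5 at 8 weeks was at 10.0, 6.38, 12.2 and 5.62 CPM in CON and at 0.0538, 0.247, 2.38 and 0.0567 CPM in LDP, every punctured library below every control. This held for Rgs5 and Myh11 and for 11.3% of all genes tested. Rgs5 had a log2 change of -2.64 (SE 0.49, limma adjusted p = 0.0612), and DESeq2 called 3 of the 5, Rgs5 and Myh11 lower and Acta2 higher, against 4.89% of all genes. In the same class 7 of 8 endothelial markers were below 0 at 2 weeks (median log2 change -1.64) and at 8 weeks (median -0.57), as were 8 of 8 fibroblast and outer annulus markers (medians -0.67 and -0.92), with a smallest limma adjusted p of 0.0873, and their part in the result was not tested. Acta2 in the IVD class was at 7.10, 8.69, 16.5 and 6.99 CPM in CON and at 28, 24.1, 7.49 and 11.9 CPM in LDP, a log2 change of 0.71 (SE 0.40, limma adjusted p = 0.323). Within uninjured discs at 2 weeks, Rgs5 in subcluster 2 was at 62.9 and 59.1 CPM in rats 2 and 3 and at 1.87 and 4.97 CPM in rats 1 and 4.

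**Figure D3:**
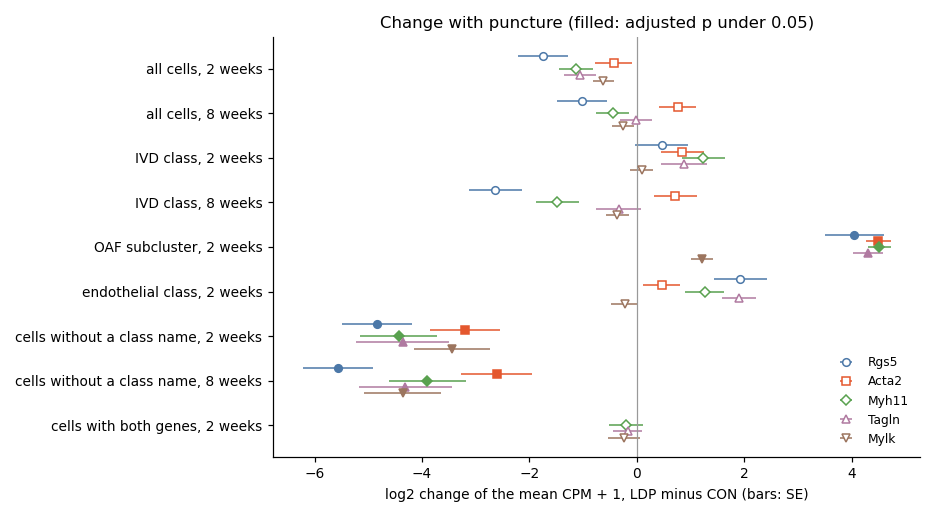
Log2 change of the mean CPM + 1 with puncture for the 5 genes (LDP minus CON, bars for the SE from limma), by the cells compared, with filled symbols for adjusted p under 0.05. The 5 symbols lie left of 0 in the cells without a class name and right of 0 in the OAF subcluster.

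Most cells with an Acta2 UMI had none of Rgs5 or Myh11, which at these depths does not show that the genes were off. Among cells with Acta2 above 0, those with neither made up 60.2% ± 6.22 in CON and 79.0% ± 8.17 in LDP at 2 weeks, and 90.2% ± 1.42 and 90.3% ± 5.39 at 8 weeks (SD, n = 4 libraries). They were 1.48% to 5.71% of all cells of a library, where 0% to 1.20% of its myeloid and lymphoid cells, which should lack Acta2, held an Acta2 UMI. In every library 88.7% to 100% of them were in the IVD class, which held 59.1% to 96.7% of all cells. The myeloid and lymphoid cells were shallower, at median depths of 1391 to 5328 UMIs per library against 4226 to 9889 UMIs in the IVD class. A cell with Rgs5 also held Tagln in 58.6% ± 8.04 and Myh11 in 50.7% ± 12.3 of cases in CON at 2 weeks. Cells without Rgs5 held them in 4.94% ± 1.89 and 2.29% ± 0.709, and cells with Acta2 in 42.6% ± 5.36 and 35.5% ± 5.84. Acta2 was held by 30.4% ± 11.5 of the cells with Rgs5, and Rgs5 by 29.5% ± 5.78 of the cells with Acta2. Cells with at least 3 of the 5 genes, 1787 in all, carried 82.8% ± 11.9 of all Myh11 CPM in CON at 2 weeks but 35% ± 5.40 of all Mylk CPM. These cells were chosen by the same genes, so part of both shares is built in and they are a description.

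Cells with both Rgs5 and Acta2 made up 1.07%, 0.898%, 0.906% and 1.04% of the CON libraries of rats 1 to 4 and 0.253%, 0.616%, 0.196% and 0.376% of their LDP libraries. The share was lower after puncture in 4 of 4 rats, and the groups did not overlap. The means were 0.979% ± 0.0898 and 0.360% ± 0.186 (SD, n = 4), a ratio of 2.72, with p = 0.0286 by an exact two-sided permutation test over 70 splits, the smallest p that 4 against 4 libraries can give. An exact sign-flip test within rats gave p = 0.125, the smallest that 4 rats allow. Only 1 of 9759 myeloid and lymphoid cells, which should lack both genes, held both, at median depths of 1391 to 5328 UMIs per library against 3522 to 8262 UMIs in the cells with both genes.

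Counted more widely, the share was 2.18% ± 0.643 against 0.949% ± 0.348 for cells with at least 3 of the 5 genes (exact permutation p = 0.0286). Relative to the endothelial class, there were 13.5 ± 3.31 cells with both genes per 100 endothelial cells in CON and 6.22 ± 2.23 in LDP (exact permutation p = 0.0286). That class was clustered separately in CON and LDP. It took in 5 of 423 cells with both genes in CON and 46 of 194 in LDP, so the ratio may compare unlike classes. With cells thinned to 1000 UMIs, and the 0 to 603 cells per library at 2 weeks that were shallower left out, the shares were 0.318% ± 0.124 and 0.0969% ± 0.0650 (exact permutation p = 0.0571), lower in 3 of 4 rats. With at least 2 UMIs of each gene they were 0.465% ± 0.164 and 0.178% ± 0.0809 (exact permutation p = 0.0571). The median depth of these cells, 3982 to 6311 UMIs in CON and 4533 to 6010 UMIs in LDP, overlapped.

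At 8 weeks the shares were 0.232%, 0.129%, 0.298% and 0.155% in CON and 0.0436%, 0.315%, 0.197% and 0.133% in LDP. The groups overlapped, and the difference of -0.0315 percentage points did not pass the test (exact permutation p = 0.629). The ratio of CON to LDP within a rat was 4.23, 1.46, 4.61 and 2.78 in rats 1 to 4 at 2 weeks and 5.33, 0.410, 1.51 and 1.17 in rats 5 to 8 at 8 weeks. These ratios overlapped, and the log2 ratio of LDP to CON did not pass the test of a difference between the times (8 weeks minus 2 weeks 1.09, exact permutation p = 0.314 over 70 splits of the 8 rats). In percentage points the change differed by 0.588 (exact permutation p = 0.0286), but from 0.129% to 0.298% in CON at 8 weeks no fall as large as the 2-week mean of 0.619 was possible. Among endothelial cells and cells without a class name the 8-week share was 1.26% ± 0.709 in CON and 2.42% ± 1.93 in LDP, higher after puncture in 4 of 4 rats (exact permutation p = 0.257), although CON had no endothelial class. That measure leaves out the IVD class, which held 36 of the 53 cells with both genes in CON and 4 of the 42 in LDP. The 8-week shares rested on 3 to 20 cells per library, and without rat 5 their difference was 0.0209 percentage points.

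**Figure D4:**
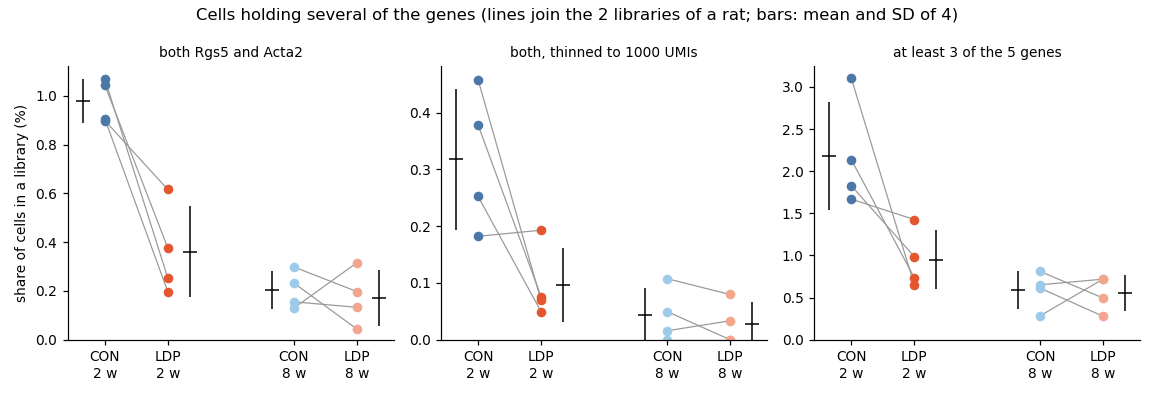
Share of a library's cells (%) that held both Rgs5 and Acta2, both after thinning to 1000 UMIs (shallower cells left out), or at least 3 of the 5 genes, with lines joining the 2 libraries of a rat and bars for the mean and SD of 4 libraries. At 2 weeks the share is lower in LDP in 4 of 4 rats for both genes and for 3 or more genes, and in 3 of 4 after thinning, and the groups overlap at 8 weeks.

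Where these cells were filed differed between the groups. In CON at 2 weeks, 363 of 423 (85.8%) had no class name and 5 were in the endothelial class. In LDP at 2 weeks, 127 of 194 (65.5%) were in subcluster 3 of the IVD class and 46 in the endothelial class, and 10 had no class name. In CON at 8 weeks, 36 of 53 were in the IVD class, and in LDP at 8 weeks, 38 of 42 (90.5%) were in the endothelial class. No group placed a lymphoid cell among them. Of the 54 IVD cells with both genes in CON at 2 weeks, 42 came from rat 3.

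**Figure D5:**
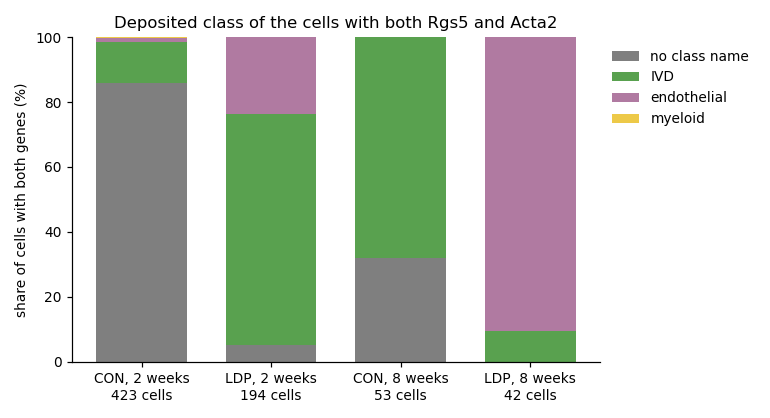
Share (%) of the cells with both Rgs5 and Acta2 in each class of the submitters, by group, with the number of such cells under each bar. The leading class is the cells without a class name in CON at 2 weeks, the IVD class in LDP at 2 weeks and CON at 8 weeks, and the endothelial class in LDP at 8 weeks.

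The cells with both genes were compared with the other cells of the same rat for the 3 genes that did not choose them. Over 7 rats with at least 20 such cells (rat 6 had too few), Myh11 was at 1568 CPM against 11.3 CPM, a log2 ratio of 7.21 (SE 0.26, limma adjusted p = 3.02e-10). Tagln was at 3111 CPM against 31.2 CPM (log2 ratio 6.60, SE 0.16, limma adjusted p = 5.03e-12), and Mylk at 521 CPM against 18.9 CPM (log2 ratio 4.72, SE 0.18, limma adjusted p = 3.47e-10). Each was higher in 7 of 7 rats, with an exact sign-flip p of 0.0156, the smallest possible. All 3 genes were called higher, as were 10.1% of the 11902 genes tested, while 35.8% were called lower. The median log2 ratio over all genes was -0.62. The minimum of 20 cells held for the libraries of a rat together, which were averaged with equal weight as log2(mean CPM + 1). The CPM given here and below for these cells and the others are those averages turned back to CPM, then averaged over the 7 rats. The LDP library of rat 5 held only 3 of these cells. A gene at a low level can read 0 in so few cells, which lowers its ratio. Of the 712 cells, 79.9% held Myh11, 89.6% Tagln and 71.2% Mylk, 62.1% held all 5 genes and 5.48% held only the 2 that chose them. These shares are pooled over all libraries, and 423 of the cells came from CON at 2 weeks. At 8 weeks only the 2 were held by 15.1% of 53 cells in CON and 9.52% of 42 in LDP, and all 5 by 52.8% and 64.3%.

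The contractile machinery was higher in these cells almost throughout, 18 of 19 genes tested on a list of smooth muscle genes, against 10.1% of all genes. Tpm2, a tropomyosin that lies along actin, was at 1438 CPM against 32.3 CPM (log2 ratio 5.44), and Myl9, the regulatory light chain that Mylk's product phosphorylates, at 824 CPM against 17.8 CPM (5.39). Tpm1 (3.53), Mustn1 (6.12) and Lmod1 (5.02), which encodes the actin nucleator leiomodin, were also higher. The exception was Smtn, smoothelin, at 0.57 (adjusted p = 0.23, limma).

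On a list of pericyte genes, 13 of 18 were higher, 3 lower and 2 not called, where 10.1% of all genes were higher and 35.8% lower. Pdgfrb, the receptor through which endothelium recruits mural cells, was at 195 CPM against 15 CPM (log2 ratio 3.62). Gucy1a3 (5.32), a subunit of the nitric oxide receptor soluble guanylate cyclase, Higd1b (5.23), Rgs4 (5.12), a relative of Rgs5, and Steap4 (3.25), a metalloreductase, were also higher. The 3 lower were Cox4i2 (-2.42), Ndufa4l2 (-1.65) and Cspg4 (-1.81), which encodes the proteoglycan NG2.

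Among ligands and receptors of mural recruitment, 11 of 18 were higher and 1 lower, beside the same 10.1% and 35.8% of all genes. The endothelin receptors Ednra (4.37) and Ednrb (3.86), the Notch ligand Jag1 (2.94) and Hbegf (1.49), a ligand of the EGF receptor, were higher, and Pdgfra, a fibroblast receptor, was lower (-3.02). Of 13 genes for serum response factor, its coactivators and actin partners, 6 were higher (10.1% of all genes), with the actin crosslinker Flna (2.63), the myosin phosphatase subunit Ppp1r12a (1.93) and the kinase Rock1 (1.23) among them, and Actg1 (-0.74) and Acta1 (-1.17), the cytoplasmic gamma and skeletal muscle actins, were lower. Srf itself was at 0.29 (limma adjusted p = 0.41). Other genes among the 20 largest ratios were Npy1r (6.42), a neuropeptide Y receptor, Gja4 (5.62) and Gjc1 (4.99), gap junction connexins, Hey2 (5.41), a Notch target, Pde3a (5.33), a cyclic nucleotide phosphodiesterase, and Adamts4 (5.59), an aggrecanase.

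Markers of other cells were measured beside them. All 8 disc markers were lower, with Col2a1, type II collagen, at a log2 ratio of -3.45, although it was above 0 in 68.0% of the cells. By group that share ran from 16.7% in LDP at 8 weeks to 77.8% in CON at 2 weeks. Beside the 35.8% of all genes called lower, 7 of 8 myeloid, 5 of 5 lymphoid, 5 of 5 Schwann, 3 of 3 osteoblast and 3 of 3 skeletal muscle markers were lower. The counts of 5 of 8 myofibroblast, 4 of 8 fibroblast and 2 of 3 erythroid markers lay nearer to that share. Markers at low levels can read 0 where few cells were counted. In LDP at 8 weeks, 5 of the 6 lymphoid markers listed there were at 0 in all 42 cells. Of 10 endothelial markers, 5 were higher and none lower, with Esam (3.16) the leading one, and Cdh5 was above 0 in 31.5% of the cells (log2 ratio 0.55, limma adjusted p = 0.44). Among the fibroblast markers Lum was higher (1.24). The part of the endothelial and Lum signals in the result was not tested.

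Puncture was also compared within the cells with both genes, at 2 weeks, where each of the 8 libraries had at least 20. Limma called 0 of 10441 genes (60 higher and 340 lower had an unadjusted p under 0.05), edgeR 10 and DESeq2 1. The log2 changes were -0.20 (SE 0.31) for Myh11, -0.17 (SE 0.27) for Tagln and -0.24 (SE 0.30) for Mylk. With the cells with both genes left out of each library, the log2 changes over the remaining cells at 2 weeks were -0.59 for Myh11, -0.59 for Tagln and -0.44 for Mylk, none of them called by limma. Rgs5 and Acta2 chose the cells left out, so their values there are no test. In the mean of the 4 libraries, the cells left out carried 48.7% of all Myh11 CPM in CON and 29.0% in LDP. These shares were 45.7% and 26.9% for Tagln and 19.4% and 8.07% for Mylk. Part of the difference from the changes over all cells is therefore built in, and the values are a description. The 3 lists of pericyte, contractile and recruitment genes and the list of serum response factor genes had 0 genes called by limma over all cells at either time, with medians at 2 weeks of -0.60, -0.33, -0.55 and -0.16 against -0.06 over all genes. The lists held 18, 19, 18 and 13 genes that were listed in every group. Of these genes DESeq2 called 4 at 2 weeks and 3 at 8 weeks, against 1.16% and 1.71% of all genes.

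Averaged over both times, 4 genes of these lists (18, 19, 18 and 13 genes) passed the test over all cells. Of all genes, 0.246% were called higher and 0.451% lower. Cox4i2, a hypoxia-linked subunit of cytochrome oxidase, was higher at a log2 change of 0.72 (SE 0.12, limma adjusted p = 0.0458). Eng (-0.64), an endothelial co-receptor for transforming growth factor beta, Dll4 (-0.97), an endothelial Notch ligand, and Pdgfra (-0.91) were lower, with limma adjusted p from 0.0430 to 0.0491. Leaving out any 1 rat left 0 list genes called by limma, and DESeq2 called 15, against 8.74% of all genes. None of the 5 pericyte and smooth muscle genes passed, with Rgs5 nearest (-1.39, limma adjusted p = 0.0875). Endothelial markers summed to 553 CPM in CON and 351 CPM in LDP at 2 weeks, and to 194 and 116 CPM at 8 weeks. Fibroblast and outer annulus markers, Pdgfra among them, summed to 20040 and 15593 CPM at 2 weeks and to 12070 and 10413 CPM at 8 weeks. Their part in the result was not tested.

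In subcluster 3 at 2 weeks part of the lists rose with the 5 genes. Against 1.33% of all genes called higher, contractile genes were so for 9 of 18, led by Myl9 (log2 change 2.70) and Cnn1 (2.70), calponin, and pericyte genes for 5 of 19, led by Higd1b (3.34) and Mcam (2.47). Ednrb (2.99), Notch1 (1.16) and Hbegf (0.96) were higher and Pdgfra (-0.82) lower among 17 recruitment genes. In the cells without a class name at 2 weeks, 8 of 18 pericyte genes and 7 of 19 contractile genes were lower, against 0.892% of all genes, led by Abcc9 (-3.90) and Tpm2 (-3.82).

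The genes most like each of the 5 were sought over 70 groups of cells, each a class of a library, among 12053 genes. The groups share libraries, classes and depth, so the correlations are a description. Abcc9, a potassium channel subunit of pericytes, was most like Rgs5 (Pearson r = 0.971), then Npy1r (0.953), Gucy1b3 (0.937), Rgs4 (0.928) and Adcy3 (0.925). Des, the muscle intermediate filament desmin, was most like Acta2 (0.933), before Tagln (0.924), Palm2 (0.917), Synpo2 (0.908) and Foxc2 (0.900). Rgs5 was most like Myh11 (0.925), then Gucy1b3 (0.917), Heyl (0.911), Pde3a (0.909) and Npy1r (0.907), and Acta2 was most like Tagln (0.924), then Gucy1b3 (0.924), Des (0.907), Myh11 (0.904) and Palm2 (0.902). For Mylk, Tpm1 (0.894), Lifr (0.893), Cygb (0.879), Nr2f2 (0.879) and Pawr (0.877) led, and none of the other 4 genes was among them. Between the 5 genes r ran from 0.795 (Myh11 with Mylk) to 0.925 (Rgs5 with Myh11).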

How the data were processed

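Cells of 16 libraries were captured with a droplet 3′ kit that counts UMIs. The authors processed the reads in Partek, and the submitters' notes name the rn6 build. They kept cells under stated limits on genes, UMIs and mitochondrial reads. As deposited, each table gives, per cell and gene, log2(CPM + 1), made by the authors from UMI counts. Each cell's total UMIs, an estimated count that need not be whole, was deposited beside them. The deposited tables also give the percent of mitochondrial counts, computed by the authors, and the class. The authors clustered each of the 4 groups separately and named the classes. The series text gives a yield of 51655 CON and 60626 LDP cells, whereas the tables hold 69624 and 79648 cells, all of which were used. The log2 values were turned back into CPM, and from the totals into UMIs, of which 99.4% to 99.5% came within 0.02 of a whole number.

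Mean CPM per library, or per class with at least 20 cells, was tested on log2(mean CPM + 1) with limma 3.58.1 (trend, moderated variances, rat as block), for genes at a mean CPM of at least 1 in at least 4 libraries, with Benjamini-Hochberg adjustment over all of them and a threshold of 0.05. On counts recovered and summed per library, edgeR 4.0.16 (quasi-likelihood) and DESeq2 1.42.0 were alternatives. Shares of cells were compared by exact two-sided permutation over 70 splits and by exact sign flips within rats. The labels give each library a title with a number and name no rat. A control and a stab library with the same number were taken to come from the same rat. Limma, edgeR and DESeq2 were tried on simulated counts summed over whole libraries. Mean CPM over cells and the cells of a class or subcluster were not simulated. Python 3.11.15 and R 4.3.3 were used. No doublet caller was run, and the cells in the top 5% of UMIs were left out as an alternative.

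The 5 genes, the gene lists and the markers were chosen with earlier results of these data known. Named genes were the 5, up to 4 genes per list with the smallest p in the contrast described, and the 20 with the largest ratio among genes at 50 CPM or more in the cells with both genes and higher in every rat. In the likeness search the 5 leading genes are named. Marker genes, list genes that went against their list and Srf were named after their values were seen. The wider rule (3 or more genes), the fits without such cells and the ratio of shares between the times were chosen after seeing the data. The depth per library limits shares as given in the report. With the rat as block, limma p-values measure the spread of the differences within rats. The permutation test of CON against LDP shares treats the libraries as unpaired, and the sign flips keep the pairing. The values of 1 marker gene are not reported here.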

Additional observations from a re-analysis of the deposited data

Results flagged for a closer look

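In uninjured discs at 8 weeks, Acta2 was at 16 CPM in rat 7 and at 6.26, 6.67 and 7.02 CPM in the other 3 rats, so that the gap to the nearest library was 0.923 of the whole range. Tagln was at 50.3 CPM in the same library and at 23.8, 22.9 and 26.6 CPM in the others, a gap of 0.866 of the range. Both lie above Dixon's 95% critical value for 4 libraries. Of 24 groups of 4 libraries tested, 2 were above it, and chance alone flags about 1 in 20.

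The change in the share of cells with both Rgs5 and Acta2, LDP minus CON, was -0.619 percentage points at 2 weeks and -0.0315 at 8 weeks. These differ by 0.588 percentage points (exact permutation p = 0.0286 over 70 splits of the 8 rats, the smallest possible). The CON share at 8 weeks, 0.204% ± 0.0767 (SD, n = 4), left no room for a fall as large as the 2-week mean. As log2 ratios of LDP to CON within a rat, the change was -1.58 at 2 weeks and -0.49 at 8 weeks, and the difference of 1.09 did not pass the test (exact permutation p = 0.314).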

How the results depend on the processing

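At 2 weeks the change in the share of cells with both genes was -0.221 percentage points with cells thinned to 1000 UMIs and shallower cells left out (exact permutation p = 0.0571), -0.288 with at least 2 UMIs of each gene (p = 0.0571) and -0.731 to -0.554 without 1 rat (exact permutation p = 0.1, the smallest 3 against 3 allows). With the replicate block, as sign flips within rats, it was -0.619 with an exact p of 0.125. At 8 weeks it turned to 0.0414 with at least 2 UMIs and ran from -0.104 to 0.0209 without 1 rat. At 8 weeks it also turned to 1.16 among endothelial cells and cells without a class name (exact permutation p = 0.257), where CON had no endothelial class. The IVD class left out there held 36 of 53 cells with both genes in CON and 4 of 42 in LDP. The difference between the times was 1.09 as a log2 ratio (exact permutation p = 0.314), a scale chosen after seeing the data.

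For the level over all cells at 2 weeks, the log2 change of Acta2 turned to 0.0938 among cells without both genes, 0.0176 among cells with fewer than 3 of the genes and 0.39 among cells with 3 or more, where Myh11 was at 0.0478, Tagln at 0.0058 and Mylk at 0.11. The cells were split by the genes whose levels are given, so these values are a description. At 8 weeks Rgs5 ran from -1.43 to -0.40 and Myh11 from -0.82 to -0.05 without 1 rat, and Tagln turned to 0.12 (CPM of summed counts), 0.23 (edgeR), 0.13 (edgeR without TMM), 0.25 (DESeq2), 0.0422 (cells without both genes) and 0.0848 (fewer than 3), and ran from -0.26 to 0.35 without 1 rat. Mylk turned to 0.0244 (edgeR), 0.0423 (DESeq2) and 0.066 (3 or more genes), and over both times to 0.0858 in the last. Acta2 over both times ran from -0.0157 to 0.42 without 1 rat. In the IVD class at 8 weeks Tagln turned to 0.0583 (edgeR) and 0.0738 (DESeq2) and ran from -0.67 to 0.0914 without 1 rat, and at 2 weeks Rgs5 ran from -0.0344 to 1.27 and Mylk from -0.14 to 0.20. In the endothelial class Rgs5 ran from 0.89 to 2.38 without 1 rat, and Mylk turned to 0.11 (summed counts), 0.19 (edgeR), 0.0939 (edgeR without TMM) and 0.22 (DESeq2), and ran from -0.44 to 0.17 without 1 rat.

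Of the 5 genes, the number called in cells without a class name at 2 weeks was 1 with 0.1 added, 2 without the limit on low values and 0 to 5 without 1 rat, and at 8 weeks 2 with 10 added and 2 to 5 without 1 rat. It was 4 to 5 in subcluster 3 without 1 rat. In the IVD class at 2 weeks it was 1 by DESeq2 and 0 to 1 without 1 rat, and at 8 weeks 1 with 0.1 added, 3 by DESeq2 and 0 to 2 without 1 rat. In the endothelial class it was 3 by summed counts, by edgeR with or without TMM and by DESeq2, and 0 to 1 without 1 rat. Among all genes over all cells at 2 weeks, 1 was called by summed counts, 142 by DESeq2 and 0 to 1 without 1 rat. At 8 weeks 3 were called with no replicate block, 4 by summed counts, 2 by edgeR, 3 by edgeR without TMM, 209 by DESeq2 and 0 to 1 without 1 rat. Of the list genes DESeq2 called 4 at 2 weeks, 3 at 8 weeks and 15 over both times, where 0 were called with no replicate block, 1 with 10 added, 2 by edgeR and 0 without any 1 rat. Against endothelial cells, 734 genes were higher and 2348 lower in cells with both genes, and with at least 2 UMIs 2800 were lower. Within those cells LDP against CON gave 10 genes by edgeR, 14 without TMM, 1 by DESeq2 and 0 to 15 without 1 rat. The cause of these changes was not tested. Of 291 checks of counts and shares, 226 stayed on the same side or within 1.5 times, and of 758 checks of single genes, 665 kept direction and call. The 3 to 20 cells per library at 8 weeks limit what can be seen there.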
